A study of Mus musculus with 4 samples.

Results

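The T cell receptor complex and its first signalling steps were examined through 9 genes: Cd3d, Cd3e, Cd3g, Cd247, Lck, Zap70, Lat, Cd28 and Cd8b1. The genes were chosen by name for their place in the pathway, with earlier results of these data known. They were matched by symbol to probe sets that list a single gene. Of the 9 genes, 8 had such a probe set, among 18193 genes represented on the array, and they had 14 probe sets in all. Lck, the kinase that starts signalling at the receptor, matched none in the gene table used and was not analysed here. Where a gene had several probe sets, the one with the highest mean represents it, and the others are given beside it.

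The samples came from C57BL/6 mice with liver fibrosis, produced in both groups by carbon tetrachloride, which is toxic to hepatocytes, given in 30 injections of 1 ml/kg. The G-CSF group (2 arrays) was given recombinant human granulocyte colony-stimulating factor at 100 µg/kg for 7 days before the last injection. The PBS group (2 arrays) was given phosphate-buffered saline with 0.1% mouse serum albumin in its place. In the labels the source is liver tissue and also cells derived from bone marrow, and the sources used here do not give how such cells were separated. Nor do the labels say that replicates came from separate animals, so the spread behind the p-values is that of these arrays and may be technical.

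The alpha and beta chains of the T cell receptor recognise peptide on MHC molecules but have no signalling tail of their own. They depend on the CD3 delta, epsilon, gamma and zeta chains, whose cytoplasmic tyrosine motifs are phosphorylated by Lck when the receptor is engaged. The kinase ZAP-70 docks on those motifs and phosphorylates the membrane adaptor LAT, from which calcium, Ras and NF-kappaB signalling branch out. CD8 brings Lck to receptors that see MHC class I, and CD28 supplies the costimulatory signal. In liver, these genes are known from the T cells that patrol the sinusoids and enter inflamed tissue.

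Cd3g, Cd3d and Cd3e are neighbours on chromosome 9. The 250 bases before the start of transcription are shown for these 3 genes, for Cd247 and for Lat, because all of them had their highest signal on the same array below. The sequences are those of RefSeq on GRCm38.p6, read 5′ to 3′ on the strand of the gene. Capitals mark AGGAAG on either strand, the core letters of a site for ETS family factors.
Cd3g, chr9:44980432-44980681, minus strand: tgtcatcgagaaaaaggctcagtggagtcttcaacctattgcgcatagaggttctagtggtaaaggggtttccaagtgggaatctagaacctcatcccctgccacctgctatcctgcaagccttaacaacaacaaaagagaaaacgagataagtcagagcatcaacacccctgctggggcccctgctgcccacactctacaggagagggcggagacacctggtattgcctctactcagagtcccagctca
Cd3d, chr9:44981536-44981785, plus strand: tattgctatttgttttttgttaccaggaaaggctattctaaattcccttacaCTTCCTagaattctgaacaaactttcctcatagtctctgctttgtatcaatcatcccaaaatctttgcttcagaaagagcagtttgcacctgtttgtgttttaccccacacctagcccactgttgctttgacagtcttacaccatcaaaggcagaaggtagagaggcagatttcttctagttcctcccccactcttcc
Cd3e, chr9:45009612-45009861, minus strand: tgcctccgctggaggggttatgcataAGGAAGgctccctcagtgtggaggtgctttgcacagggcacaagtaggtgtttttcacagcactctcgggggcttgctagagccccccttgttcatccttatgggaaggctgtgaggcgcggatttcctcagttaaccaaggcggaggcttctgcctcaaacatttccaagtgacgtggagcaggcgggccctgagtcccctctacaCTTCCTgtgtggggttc
Cd247, chr1:165788431-165788680, plus strand: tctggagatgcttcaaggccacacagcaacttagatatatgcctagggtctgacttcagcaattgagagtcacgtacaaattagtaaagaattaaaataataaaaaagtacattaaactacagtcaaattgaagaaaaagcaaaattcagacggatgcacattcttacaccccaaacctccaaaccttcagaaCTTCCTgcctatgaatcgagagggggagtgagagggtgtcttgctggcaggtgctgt
Lat, chr7:126369569-126369818, minus strand: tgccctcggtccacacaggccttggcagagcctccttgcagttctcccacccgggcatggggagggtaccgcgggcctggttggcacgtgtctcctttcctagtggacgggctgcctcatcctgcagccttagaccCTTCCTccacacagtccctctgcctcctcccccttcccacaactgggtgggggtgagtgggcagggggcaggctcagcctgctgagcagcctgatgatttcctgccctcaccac
Windows were matched for 7 of the 9 genes, 10 windows in all, and Cd28 and Cd8b1 were not matched. Zap70 and Lck had several windows each, and Lck was not measured. AGGAAG stood in 8 of the 10 windows, those of 6 genes, and in 29.5% of all 32851 promoter windows of the same length. Among the sequences shown, that of Cd3g lacks these letters. The E-box letters CANNTG were present in 9 of the 10 windows and in 66.2% of all windows, while TATAAA was in 0 of the 10 and in 12.4% of all. The RUNX letters TGTGGT and the TCF/LEF letters TCAAAG were each found in 2 of the 10 windows, against 14% and 13.8% of all windows. The GATA letters AGATAA were found in 1, that of Cd3g, against 9.99% of all windows. All motifs were searched on both strands, without regard to overlap with each other. A match describes the letters of a window and shows no binding.

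Over the whole set of genes, PBS replicate 1 differed from the rest. Its Pearson correlation with each other array, over the 12187 genes tested, was 0.813 to 0.844, while the G-CSF replicates correlated at 0.974. Signals are MAS5 values on a linear scale, and the background limit of each array was set by the brightest of 27 control probe sets for transcripts that should be absent. That limit was 86.4 and 63.0 in G-CSF replicates 1 and 2, against 106 and 94.6 in PBS replicates 1 and 2. For Gapdh, the 3' probe set divided by the 5' one, a measure of RNA quality, gave 20.2 and 19.1 in the G-CSF arrays, against 15.7 and 14.8 in the PBS arrays. This ratio separated the groups but did not set PBS replicate 1 apart, and its part in the results was not tested.

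Of the 8 measured genes, 7 had their highest signal on PBS replicate 1, each at least 8-fold above every other array on the log2(signal + 23) scale. Over all genes tested, 0.73% reached that excess on PBS replicate 1. At the lower limit of 2-fold the count was again 7 of 8, against 8.21% of all genes tested. At 4-fold it was 7, against 1.98%. Cd247, Cd28 and Cd8b1 passed the limit on mean signal set for testing (95.03) only through PBS replicate 1. Such genes had to be high on it. Of the other 5 genes, 4 stood 2-fold above, against 7.14% of all genes that passed without it. On G-CSF replicate 1, G-CSF replicate 2 and PBS replicate 2, 0 of the 8 genes stood 2-fold above the rest, where 0.23%, 0.107% and 1.06% of all genes did. The fold ran from 8.05 for Cd3e to 20.4 for Cd247, and Zap70 was the exception. The excesses on PBS replicate 1 describe a single array and were not tested. RNA of a mixed sample was measured, so more T cells and more of each transcript per cell on that array cannot be told apart.

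**Figure D1:**
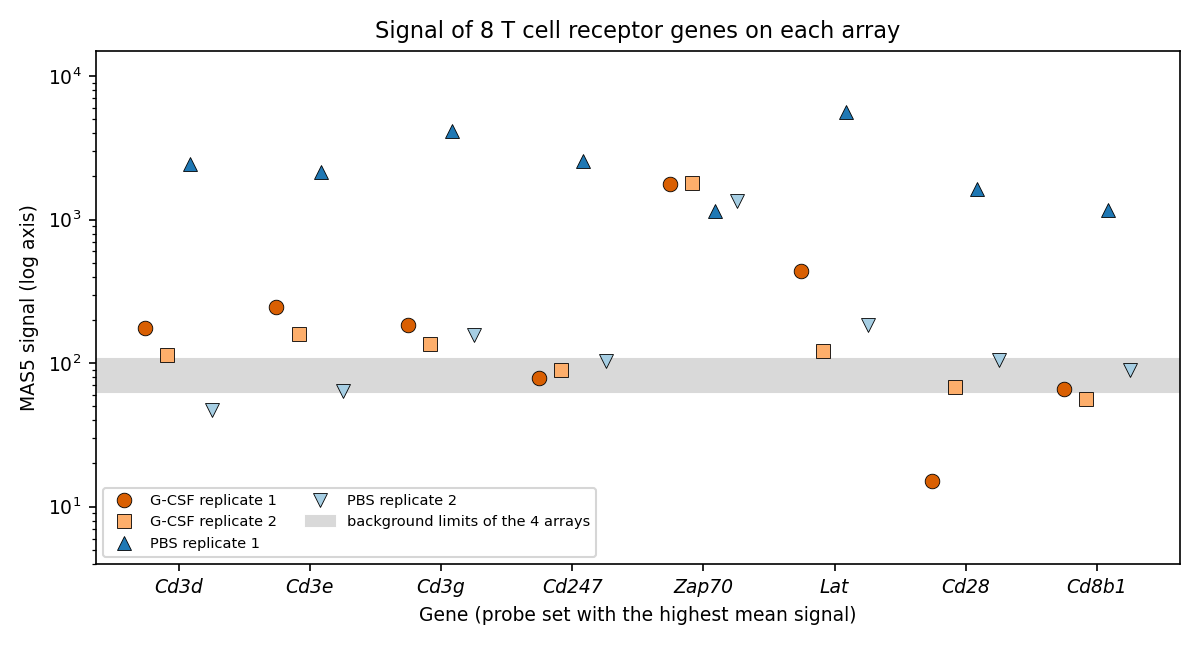
MAS5 signal (log axis) of 8 T cell receptor genes on each of 4 arrays, by the probe set with the highest mean signal of each gene. Each point is 1 array, and the grey band spans the background limits of the arrays, 63.0 to 106. PBS replicate 1 is the highest array for every gene but Zap70, whose highest signals are those of the G-CSF arrays.

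Cd3d, the CD3 delta chain, had signals of 174 and 114 in G-CSF replicates 1 and 2, against 2420.01 and 47.5 in PBS replicates 1 and 2. Cd3e, the epsilon chain that pairs with both delta and gamma, had signals of 248 and 161 with G-CSF, against 2157 and 64.3 with PBS. For both genes PBS replicate 2 lay below its background limit and below both G-CSF arrays, while PBS replicate 1 lay above all others, so the groups overlapped. Cd3g, the gamma chain, had signals of 185 and 136 with G-CSF, against 4116 and 157 with PBS. All 4 of its signals were above background, and PBS replicate 2 lay between the G-CSF arrays. Cd247, the zeta chain, which carries the longest signalling tail of the complex, had signals of 78.5 and 90.1 with G-CSF, against 2570.3 and 104 with PBS. Both PBS arrays were above both G-CSF arrays here, and PBS replicate 2 and the G-CSF arrays all lay near their background limits.

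The genes on either side of the CD3 cluster did not share this order. Ube4a and Mpzl2, its neighbours in the RefSeq gene order, were picked by position after the values of the CD3 genes were seen. Ube4a, a ubiquitin ligase, had signals of 474 and 340.3 with G-CSF, against 312 and 384 with PBS. Mpzl2, an adhesion protein, had signals of 1255 and 1459 with G-CSF, against 676 and 2272 with PBS. By their highest probe sets PBS replicate 1 thus held the lowest signal of both neighbours. It was not the lowest array by the weaker probe sets of Ube4a, which were below background on it.

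Lat, the adaptor that ZAP-70 phosphorylates, had signals of 438 and 122 with G-CSF, against 5658 and 183 with PBS. All 4 were above background, and PBS replicate 2 lay between the G-CSF replicates, which stood apart from each other. Cd28, the costimulatory receptor, had signals of 15.1 and 68.1 with G-CSF, against 1636 and 106 with PBS. By its second probe set, 1417597_at, Cd28 had signals of 109 and 82.8 with G-CSF, against 1559 and 70.5 with PBS. PBS replicate 1 was the highest array by both probe sets of Cd28, but PBS replicate 2 lay above both G-CSF arrays by one and below both by the other. Cd8b1, the beta chain of the CD8 coreceptor of cytotoxic T cells, had signals of 66.1 and 56.4 with G-CSF, against 1165 and 89.6 with PBS. It was above background on PBS replicate 1 only.

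Zap70, the kinase that docks on the CD3 chains, gave opposite orders by different probe sets. Its probe set with the highest mean, 1439749_at, had signals of 1762 and 1796 with G-CSF, against 1155 and 1352 with PBS, and no accession is listed for it. Probe set 1440178_x_at of Zap70 had signals of 379 and 221 with G-CSF, against 2462 and 367 with PBS. Probe set 1422701_at, listed with a RefSeq transcript of Zap70, had signals of 111 and 32.7 with G-CSF, against 966.0 and 69.8 with PBS. PBS replicate 1 was thus 6.49 and 8.71 times the highest other array in signal by 1440178_x_at and 1422701_at, and it was the lowest array by 1439749_at. Which of them measures Zap70 transcripts was not tested. With only probe sets that list an accession, or with the mean of all probe sets of a gene, 8 of 8 genes stood at least 2-fold above every other array on PBS replicate 1.

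Cd247 had 3 further probe sets. By 1420716_at its signals were 29.9 and 19.3 with G-CSF, against 113 and 41.3 with PBS, above background on PBS replicate 1 only. The remaining pair, 1452539_a_at and 1426079_at, was below background on all 4 arrays. Over all 14 probe sets of the 8 genes, 12 had their highest signal on PBS replicate 1, and 9 of these were at least 8 times the highest other array in signal.

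**Figure D2:**
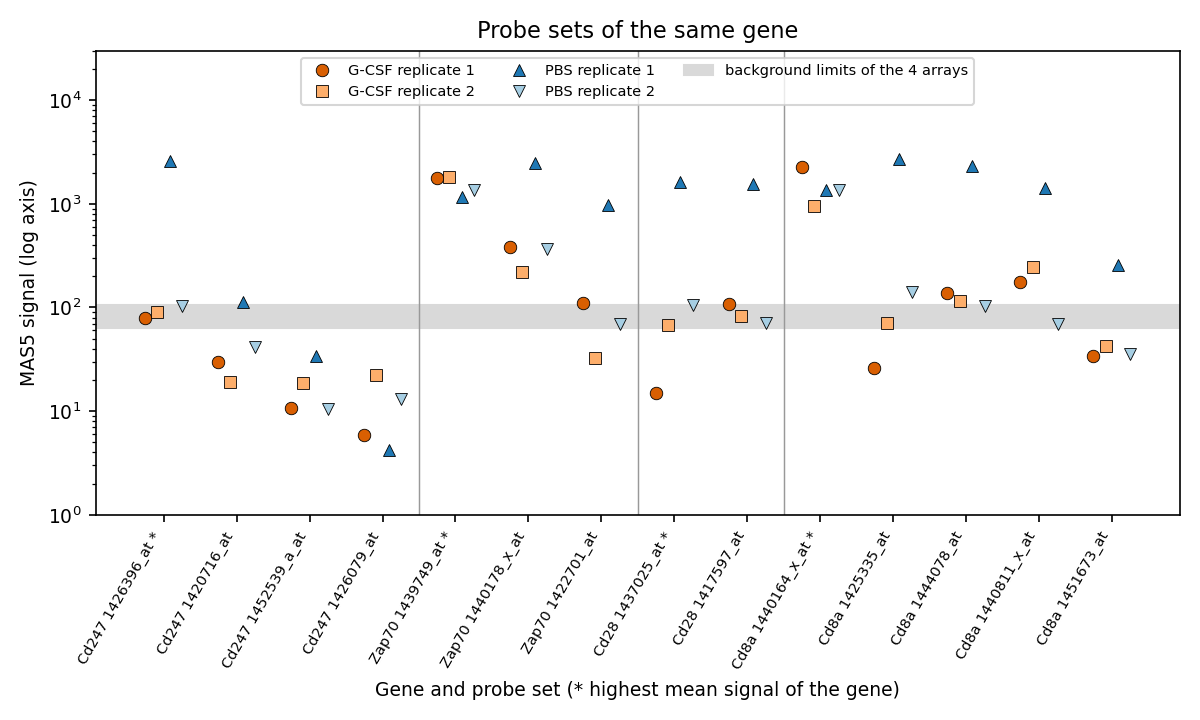
MAS5 signal (log axis) of every single-gene probe set of Cd247, Zap70 and Cd28, and of the coreceptor chain Cd8a, on 4 arrays. An asterisk marks the probe set with the highest mean signal of each gene, and the grey band spans the background limits. PBS replicate 1 is the highest array for 2 of 3 Zap70 probe sets and 4 of 5 Cd8a probe sets, and in both genes the probe set marked with an asterisk lacks that excess.

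The design asks which transcripts differed between mice given G-CSF and mice given PBS. Of the 8 genes, 0 were called by limma after Benjamini-Hochberg adjustment over all 12187 genes, where 0% of genes were called in either direction. At an unadjusted p below 0.05 there were 0 of 8, against 3.52% of all genes. All differences subtract PBS from G-CSF means of log2(signal + 23), given with their standard error (SE, n = 2 arrays in each group), and this scale understates the change of weak signals. By their means 6 of the 8 genes were at least 2-fold lower with G-CSF, a count for which no share over all genes was taken. Without PBS replicate 1 the same held for Cd28 only, by its highest probe set. With all arrays the groups did not overlap for 3 of the 6, Cd247, Cd28 and Cd8b1. Of all genes, 1.52% met both conditions and 12.1% had no overlap with G-CSF the lower. These 3 genes were tested only because PBS replicate 1 was high, so the shares over all genes are not a fair measure for them. Their signals on PBS replicate 2 were 104, 106 and 89.6, beside its background limit of 94.6. By its second probe set, 1417597_at, Cd28 overlapped. In the other direction 0 of the 8 were at least 2-fold higher without overlap, against 4.04% of all genes.

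The median difference over the 8 genes was −2.09, beside 0.07 over all genes tested. Cd28 had a difference of −2.97 ± 1.27 (limma, unadjusted p = 0.0654), with G-CSF replicate 1 below background, and of −1.70 by 1417597_at. With pseudocounts of 1 and 92 in place of 23, the difference of Cd28 was −3.65 and −2.16. Cd247 was at −2.42 ± 1.40 and Cd3g at −2.25 ± 1.45. Cd8b1 was at −2.12 ± 1.12, with both G-CSF arrays and PBS replicate 2 at background, so the size of this difference is not measured. Lat was at −2.07 ± 1.61, Cd3d at −1.33 ± 1.64 and Cd3e at −0.97 ± 1.50. Zap70 was at 0.50 ± 0.32 by its highest probe set, with both G-CSF arrays above both PBS arrays, as for 18.6% of all genes tested. By 1440178_x_at and 1422701_at its difference was −1.65 and −1.81. For all 8 genes the limma adjusted p was 0.988. The smallest two-sided p that exact permutation of 2 and 2 arrays allows is 0.333.

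The difference between the PBS replicates exceeded that between the groups for the genes other than Zap70. For these 7 genes the SD of the G-CSF pair was 0.11 to 1.18 on the log2(signal + 23) scale, against 2.40 to 3.62 for the PBS pair. Zap70 had an SD of 0.02 with G-CSF and 0.16 with PBS. Over all genes tested the median SD was 0.15 with G-CSF and 0.49 with PBS.

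Leaving out PBS replicate 1 turned the median over the 8 genes to 0.17. In that fit limma called 0 of the 8 genes, against 2.78% of all genes called higher and 1.45% called lower, and the smallest adjusted p was 0.136, that of Cd3e. Cd3e and Cd3d then differed by 1.35 and 1.22, with a PBS signal below background. Lat and Cd3g differed by 0.33 and 0.02, so all 4 of these genes changed sign. Cd247, Cd8b1 and Cd28 kept a negative difference of −0.24, −0.42 and −1.13. Leaving out PBS replicate 2 gave a median of −4.17. The 7 genes other than Zap70 then had differences of −4.82 to −3.29. PBS replicate 1, on which these 7 genes were highest, is the only PBS array in that fit, so negative differences were fixed in advance. Of all genes 11.1% were at least 2-fold lower. This share is not a fair measure for Cd247, Cd28 and Cd8b1, which were tested only because PBS replicate 1 was high. Zap70 differed by 0.61 in that fit. Each of these fits has a single PBS array, which is assumed to vary as the G-CSF arrays do.

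**Figure D3:**
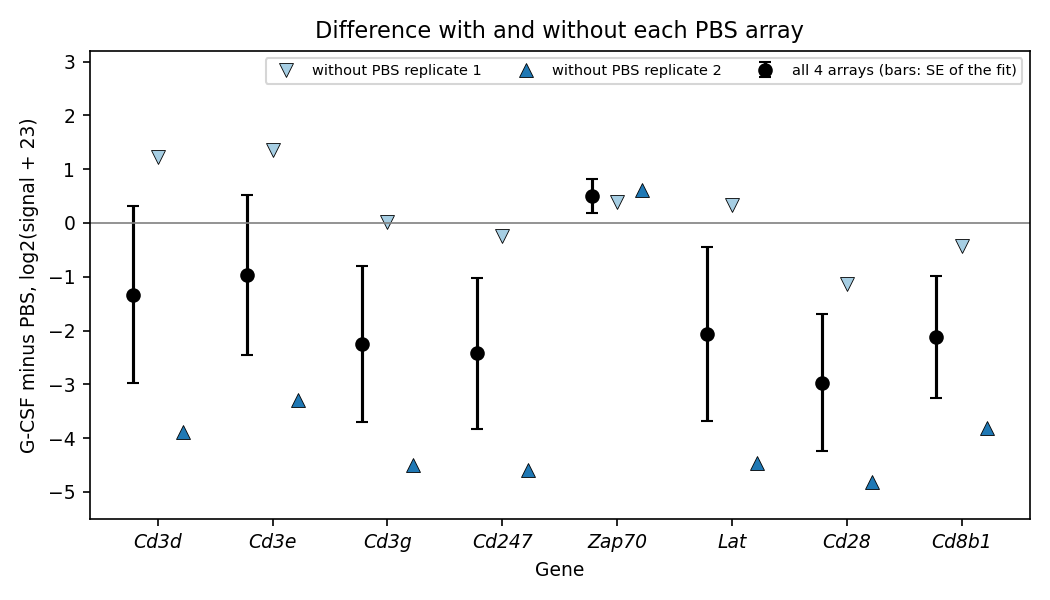
Difference between G-CSF and PBS means (G-CSF minus PBS, log2(signal + 23)) for 8 genes, with all 4 arrays (black points, bars show the SE), without PBS replicate 1 (pale triangles) and without PBS replicate 2 (dark triangles). The median over the genes is −2.09 with all arrays, 0.17 without PBS replicate 1 and −4.17 without PBS replicate 2.

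Among the arrays other than PBS replicate 1 the genes had no common order. G-CSF replicate 1 exceeded PBS replicate 2 for 5 of the 8 genes, and G-CSF replicate 2 exceeded it for 3. PBS replicate 2 lay below both G-CSF arrays for Cd3d, Cd3e and Zap70, above both for Cd247, Cd28 and Cd8b1, and between them for Cd3g and Lat. At or below background were 3 of the 8 genes on G-CSF replicate 1 and 1 on G-CSF replicate 2, against 0 on PBS replicate 1 and 3 on PBS replicate 2. For all genes tested these shares were 2.63% and 1.13% on the G-CSF arrays, against 8.63% and 4.22% on the PBS arrays. All 8 genes passed the limit on mean signal of 95.03 that was set for testing, but Cd247, Cd28 and Cd8b1 passed it only through PBS replicate 1.

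The excess on PBS replicate 1 extended to other genes of the T cell pathway, but not evenly. In 4 lists of such genes, 89 were tested and 0 were called by limma. At an unadjusted p below 0.05 there were 4 higher and 1 lower with G-CSF, against 3.13% and 0.386% of all genes. Of the 89, 41 stood at least 2-fold above every other array on PBS replicate 1, against 8.21% of all genes, a share that holds beside each list below. Genes that passed the limit on mean signal only through that array had to be high on it, and there were 17 of these among the 89. Of the other 72, 25 stood 2-fold above, against 7.14% of all genes that passed without it. The median difference over the 89 genes was −0.28. Without PBS replicate 1 it was 0.19, and limma called 4 genes higher (Pag1, Cbl, Zbtb7b and Ikzf1, named after their values were seen) and 0 lower, against 2.78% and 1.45% of all genes. Without PBS replicate 2 it was −0.83, with PBS replicate 1, on which 41 of the 89 stood high, as the only PBS array.

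Among coreceptors, costimulatory and inhibitory receptors, 10 of 17 tested genes stood 2-fold above every other array on PBS replicate 1. Of the 17, 7 were tested only because that array was high. Of the other 10, 3 stood 2-fold above, against 7.14% of all genes that passed the limit on mean signal without it. The median difference over the 17 genes was −1.02. Cd2, an adhesion receptor of T cells, had signals of 40.3 and 78.4 with G-CSF, against 1256 and 107 with PBS. Cd5, a damper of receptor signalling, had signals of 90.0 and 112.37 with G-CSF, against 442 and 112.4 with PBS. PBS replicate 1 was the highest array for both. Tnfrsf9, the costimulatory receptor 4-1BB, had signals of 140.1 and 30.2 with G-CSF, against 173 and 176 with PBS. Il7r, the IL-7 receptor alpha chain, had signals of 991 and 649 with G-CSF, against 432 and 373 with PBS, and differed by 0.96 ± 0.37 (limma adjusted p = 0.988). The PBS arrays were alike for these 2 genes, and a weaker second probe set of Il7r, near background, did not separate the groups. Cd4 was below the limit for testing, with signals of 24.9 and 40.1 with G-CSF, against 125 and 25.1 with PBS.

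Cd8a, the partner chain of Cd8b1, had probe sets that disagreed as those of Zap70 did. The one with the highest mean, 1440164_x_at, had signals of 2249 and 962 with G-CSF, against 1362 and 1359 with PBS. By 1425335_at the signals of Cd8a were 26.3 and 70.4 with G-CSF, against 2706 and 142 with PBS. By each of the 4 probe sets other than the first, PBS replicate 1 was more than 4-fold above every other array on the log2(signal + 23) scale. Of the 89 genes, 61 had several probe sets, and Cd8a and Sos1 were the 2 that stood 2-fold above on PBS replicate 1 by another probe set but not by the highest one. That probe set of Sos1 was below background on all 4 arrays, so its excess is not a measured one.

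Among kinases, adaptors and phosphatases of the receptor, 17 of 31 tested genes stood 2-fold above every other array on PBS replicate 1. Of the 31, 8 were tested only because that array was high, and 10 of the other 23 stood 2-fold above. The median difference over the 31 genes was −0.64. Fyn, the Src family kinase beside Lck, had signals of 452 and 594 with G-CSF, against 1563 and 713 with PBS. Rhoh, a small GTPase needed for ZAP-70 recruitment, had signals of 19.5 and 64.8 with G-CSF, against 592 and 75.6 with PBS. Fyb, an adaptor that binds SLP-76, had signals of 2565 and 2506 with G-CSF, against 9586 and 3426 with PBS. All 3 genes were highest on PBS replicate 1, and by the highest probe set PBS replicate 2 was also above both G-CSF arrays. For Rhoh, PBS replicate 2 and G-CSF replicate 1 lay below background, so the order of these arrays is not a measured one. By second probe sets above background on all 4 arrays, Fyb had signals of 3973 and 4006 with G-CSF, against 5579 and 3110.2 with PBS, and Fyn had 585 and 420.2 with G-CSF, against 1681 and 528 with PBS, so the groups overlapped. The groups did not overlap for Sit1, an inhibitory adaptor, with signals of 44.1 and 70.1 with G-CSF, against 209 and 103 with PBS.

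The partners that assemble on LAT differed in their excess on PBS replicate 1. Grap2, which encodes the adaptor GADS that binds LAT, had signals of 30.6 and 24.5 with G-CSF, against 331 and 9.85 with PBS. Plcg1, the phospholipase C that LAT recruits, had signals of 648 and 883 with G-CSF, against 2142 and 760.4 with PBS. Both were highest on PBS replicate 1, although a weaker second probe set of each was not. By the probe set used, Grap2 was above background on PBS replicate 1 only, and its second probe set was below background on every array. Lcp2, the adaptor SLP-76 that GADS brings to LAT, had signals of 677 and 678 with G-CSF, against 984 and 479 with PBS. Vav1, an exchange factor of the same assembly, had signals of 539.7 and 526 with G-CSF, against 691 and 352 with PBS. Lcp2 and Vav1 are also expressed by myeloid cells, and PBS replicate 1 was 1.44-fold and 1.27-fold above the highest other array on the log2(signal + 23) scale, but not by a second probe set of Lcp2.

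Downstream of LAT, 4 of 24 tested genes stood 2-fold above every other array on PBS replicate 1, and the median difference was 0.21. The 4 were Rasgrp1, Prkcq, Nfatc3 and Ppp3cb, of which the last 3 are named after their values were seen. Rasgrp1, the Ras exchange factor of T cells, had signals of 197 and 203 with G-CSF, against 2475 and 294 with PBS. Orai1, the pore of the store-operated calcium channel, had signals of 1199 and 1229 with G-CSF, against 446 and 654 with PBS, and differed by 1.13 ± 0.35 (limma unadjusted p = 0.0228, adjusted p = 0.988). Ppp3ca, a calcineurin catalytic subunit, had signals of 1998 and 1890.4 with G-CSF, against 635 and 1353 with PBS. PBS replicate 1 was the lowest array for Orai1 and Ppp3ca, unlike for Rasgrp1. By the highest probe set it was also the lowest for Mapk14, the p38 alpha kinase, with signals of 5927 and 5215 with G-CSF, against 2961 and 4049 with PBS.

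Among T cell transcription factors, 10 of 17 tested genes stood 2-fold above every other array on PBS replicate 1. Of the 17, 2 were tested only because that array was high, and 8 of the other 15 stood 2-fold above. The median difference over the 17 genes was −1.07. Bcl11b, which holds cells in the T lineage, had signals of 375 and 342 with G-CSF, against 18671 and 190.02 with PBS. Lef1, a partner of beta-catenin in T cell development, had signals of 126 and 49.1 with G-CSF, against 5167 and 98.4 with PBS. Both exceeded every other array on PBS replicate 1 by more than any of the T cell receptor genes did. Tox, a regulator of T cell development, had signals of 56.9 and 87.7 with G-CSF, against 517 and 160.2 with PBS. Runx1, a factor of blood cell development, had signals of 409.7 and 443 with G-CSF, against 1565 and 534 with PBS. By these probe sets the groups did not overlap for Tox and Runx1, with PBS the higher, but overlapped for Bcl11b and Lef1. Probe sets of Runx1 disagreed, since by 1440878_at it had signals of 482 and 431 with G-CSF, against 1272 and 299 with PBS, and by 1452530_a_at PBS replicate 1 was the lowest array.

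Klf2 and Zbtb7b had the opposite order by their highest probe sets. Klf2, a factor of lymphocyte and endothelial quiescence, had signals of 1074 and 1489 with G-CSF, against 519 and 591 with PBS. Zbtb7b, the CD4 lineage factor ThPOK, had signals of 603 and 333 with G-CSF, against 212 and 79.8 with PBS. By its second probe set, 1420663_at, Zbtb7b had signals of 263 and 175 with G-CSF, against 104 and 208 with PBS, which overlap. The difference was 1.16 for Klf2 and 1.60 for Zbtb7b, at a limma adjusted p of 0.988 each, and 0.47 for Zbtb7b by the second probe set. Tcf7 matched no single-gene probe set in the table used.

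Genes were ranked by the likeness of their values to the mean of the 8 genes, as Euclidean distance over the 4 arrays on log2(signal + 23) values centred on each gene. The 10 nearest were Cd96, Drosha, AI504432, Erc2, Pdxp, Tmem151b, Gm4371, Rgs13, Ikzf2 and Skap1, at distances of 0.139 to 0.419. Cd96, a receptor of T and NK cells, had signals of 143 and 113 with G-CSF, against 2014 and 116 with PBS. Skap1, an adaptor of T cells, had signals of 176 and 198 with G-CSF, against 1928 and 134 with PBS. Drosha, the nuclear microRNA processing enzyme, had signals of 2003 and 2075 with G-CSF, against 27969 and 1693 with PBS. PBS replicate 1 was 8.75-fold to 15.5-fold above every other array for these 10 genes by their highest probe sets. Other probe sets fell short of that range, with 5.18-fold and 0.37-fold for Drosha, 3.26-fold and 0.72-fold for Ikzf2, 6.88-fold and 2.99-fold for Skap1, and 8.21-fold for AI504432. Erc2, Pdxp, Tmem151b, Gm4371 and Rgs13 passed the limit on mean signal only through PBS replicate 1, so they had to be high on it. Gm4371 and Rgs13 lay below background on every other array, so the size of their fold rests on the pseudocount of 23. Among the T cell receptor genes themselves, Cd8b1 lay closest to the mean at 0.50 and Zap70 farthest at 3.60. The likeness rests on 4 arrays and largely on PBS replicate 1.

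Markers of other cells are given because many also differed on PBS replicate 1. Among genes of immature T cells in the thymus, 12 of 14 tested stood 2-fold above every other array on PBS replicate 1, against 8.21% of all genes. Of the 14, 6 were tested only because PBS replicate 1 was high, Rag1 and Ptcra among them, and 6 of the other 8 stood 2-fold above. The list summed to 28821 and 24226 with G-CSF, against 106633 and 22729 with PBS. Cd24a and Cd1d1, named after their values were seen, made up most of the sum on every array but PBS replicate 1. Cd24a had signals of 14252 and 14142 with G-CSF, against 15719 and 4954 with PBS. Those of Cd1d1 were 10390 and 5804 with G-CSF, against 5577 and 15154 with PBS. Rag1, part of the recombinase that assembles receptor genes, had signals of 2.20 and 1.64 with G-CSF, against 6016 and 1.61 with PBS. Ptcra, the chain that pairs with beta before alpha is made, had signals of 26.7 and 37.1 with G-CSF, against 1258 and 64.4 with PBS. Both were below background on every array but PBS replicate 1. Proliferation genes stood 2-fold above on PBS replicate 1 in 10 of 11 cases, with sums of 18269 and 22298 with G-CSF, against 85542 and 9640.5 with PBS.

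Of 11 gamma-delta T, NK and cytotoxic genes tested, 2 stood 2-fold above every other array on PBS replicate 1, Gzma and Sox13, the second named after its values were seen. Gzma, a granule protease, had signals of 196 and 111 with G-CSF, against 34946 and 301 with PBS. Nkg7, a granule membrane protein of the same cells, had signals of 916 and 1187 with G-CSF, against 390.04 and 483 with PBS. The list summed to 4576 and 4719 with G-CSF, against 37915 and 3827 with PBS, and Gzma made up most of that of PBS replicate 1.

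B cell genes, which serve the other antigen receptor, did not share the excess. Of 16 tested, 1 stood 2-fold above every other array on PBS replicate 1, Blk, named after its values were seen. The list summed to 10858 and 8806 with G-CSF, against 5092 and 8118 with PBS. Cd79a, a signalling chain of the B cell receptor as CD3 is of the T cell receptor, had signals of 175 and 237 with G-CSF, against 108 and 360.5 with PBS. Cd79b, its partner, had signals of 869 and 496 with G-CSF, against 215 and 794 with PBS. Syk, the kinase related to ZAP-70 that serves B cells and myeloid cells, had signals of 3569 and 3122 with G-CSF, against 704 and 1920.1 with PBS. PBS replicate 1 was the lowest array for all 3 genes.

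Of 10 hepatocyte genes, 10 Kupffer cell and macrophage genes and 15 neutrophil genes tested, 0 stood 2-fold above every other array on PBS replicate 1. The hepatocyte genes summed to 257788 and 250029 with G-CSF, against 164898 and 294269 with PBS. Alb, the hepatocyte product albumin, had signals of 52315 and 46302 with G-CSF, against 43301 and 46068 with PBS. This transcript was thus strong on all 4 arrays, and how much parenchyma each sample held was not tested. The macrophage genes summed to 73213 and 68095 with G-CSF, against 38421 and 93986 with PBS. Both sums were lowest on PBS replicate 1. All 15 neutrophil genes were higher on both G-CSF arrays than on both PBS arrays, as were 18.6% of all genes tested, with sums of 305040.2 and 260805 with G-CSF, against 27173 and 9207 with PBS. The part of these cell types in the signals of the T cell receptor genes was not tested.

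**Figure D4:**
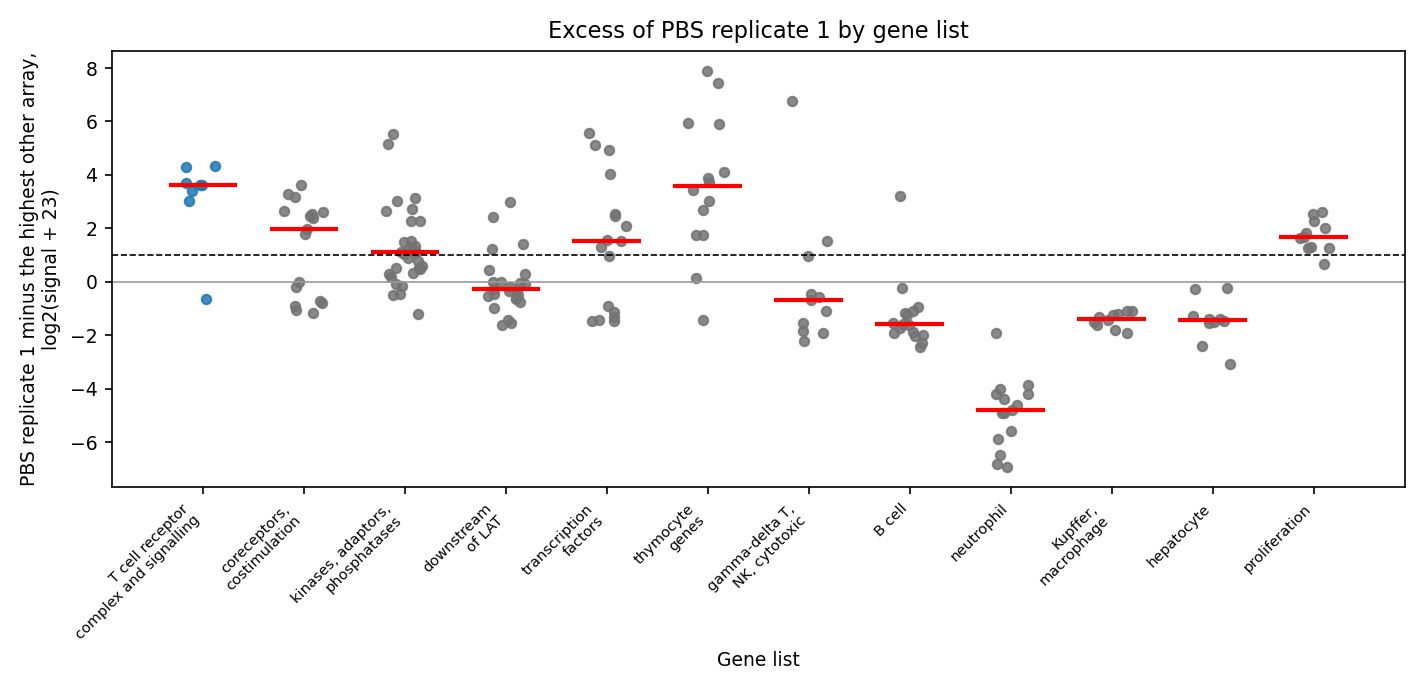
PBS replicate 1 minus the highest other array on the log2(signal + 23) scale, for each tested gene of 12 lists (points) with the list median (red line), and a dashed line at 2-fold. The T cell receptor genes (blue) lie at 3.01 to 4.35 except Zap70 at −0.63, while all neutrophil, macrophage and hepatocyte genes lie below 0.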

How the data were processed

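Total RNA (40 ng) was labelled with the 3' IVT Express kit and hybridised to 1 Affymetrix mouse array per sample, per the labels' protocols. The authors deposited MAS5 intensity values for 45101 probe sets on a linear scale, per the submitters' processing notes, which name no MAS5 version. Each array had a trimmed mean of 500, so values were not rescaled. The number of arrays limits the precision.

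Controls (64 probe sets), probe sets with several genes (932) and probe sets with none (9160) in GEO's platform annotation, which can be old, were left out. The other 34945 list 1 gene each, 34741 of them matched by Entrez ID to the RefSeq gene table. Of 18193 genes, 12187 exceeded a mean of 95.03, the median over probe sets, and were tested with limma 3.58.1 in R 4.3.3 (lmFit, eBayes with trend, two-sided, Benjamini-Hochberg at 0.05) on log2(signal + 23), with 2 residual degrees of freedom. Groups follow the labels, and no batch was used. The fit was tested on simulated data in which a gene had the same spread on all 4 arrays. The simulation does not cover an array that stands apart, as PBS replicate 1 does.

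The members and gene lists were chosen with earlier results of these data known. By the rule for named genes, the text may name all members with their probe sets, up to 4 genes of each list with the smallest p, the 10 genes nearest to the members and a fixed set of names. Alternatives were other normalizations, pseudocounts, filters, variance models and probe set choices, the replicate number as a block, and each array left out. Probe sets with an accession only, and recounts of the excess on PBS replicate 1, were added after seeing the data.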

Additional observations from a re-analysis of the deposited data

How the results depend on the processing

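In 12 alternative settings that kept the 4 arrays, 0 of the 8 T cell receptor genes were called and the median difference was −2.24 to −1.70. Those settings gave 94 differences of single genes, since Cd28 and Cd8b1 were below the stricter filter, and 92 of them kept their direction and stayed short of the threshold. The other 2 were those of Zap70, −0.99 with the mean of all probe sets and −1.65 with probe sets that list an accession. Over all genes 0 were called in these settings except with the replicate block, which gave 92 calls over all genes, 1 among the other T cell genes and 0 among the T cell receptor genes. The labels do not pair the replicates, and the deviations of same-numbered arrays correlated at −0.04 over 12187 genes. With 1 array left out, the calls ran from 6 to 4689 over all genes, from 0 to 8 among the T cell receptor genes and from 0 to 55 among the other T cell genes, and each upper value is that without PBS replicate 2. The median difference then ran from −4.17 to 0.17, being positive without PBS replicate 1. Single differences ran from −3.89 to 1.22 for Cd3d, from −3.29 to 1.35 for Cd3e, from −4.51 to 0.015 for Cd3g and from −4.46 to 0.33 for Lat. The count of genes at least 2-fold above every other array on PBS replicate 1 was 7 or 8 in each of the 7 settings tried. Signals near background on the other arrays limit how well the size of these excesses is known.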
